A study of Mus musculus with 6 samples.

Results

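Genes of the lysosome were examined in bulk RNA sequencing of subcutaneous MCA205 tumors from mice given FF-10101 or plain water. MCA205 is a mouse fibrosarcoma line, and FF-10101 is an inhibitor of the tyrosine kinase FLT3 whose targets, per the study, include KIT and CSF1R, a receptor that tumor macrophages depend on. The 3 Control tumors came from mice given milliQ water, and the 3 FF-10101 tumors from mice whose water bottle held the compound at 0.1 mg/mL, starting on day 1 and ending on day 8. All tumors grew from the same line in female C57BL/6J mice of 7 weeks, with no other treatment or allele, and were taken on day 8. The labels number the tumors within a group but do not say that each came from its own mouse, so p-values measure the spread between these tumors only.

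The lysosomal genes are a list of 44 members taken by gene symbol from the 54309 gene identifiers of the table: 9 cysteine cathepsins with legumain, 4 aspartic and serine proteases, 11 glycosidases, 5 sulfatases, 4 lipid hydrolases, 3 activators with progranulin, 4 membrane proteins with the factor TFEB, and 4 subunits of the proton pump. All 44 members were present and passed the minimum of 10 normalized counts on average, as did 13963 genes in all. The members were picked by name, with no measured value in the rule, though earlier results of these data were known when the list was made.

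Lysosomes are acid compartments in which proteases, glycosidases, sulfatases and lipases break down material taken up by endocytosis, phagocytosis or autophagy. The vacuolar proton pump (V-ATPase) keeps them acid, LAMP proteins line their membrane, and the factor TFEB switches on many of their genes through a short promoter element called CLEAR. Macrophages carry many lysosomes and large amounts of cathepsins, and tumor cells and fibroblasts use some of the same enzymes to remodel matrix.

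The letters TCACGTGA, the core of the CLEAR element, were searched for on both strands (the motif reads the same on each) in the 300 bases around gene starts in RefSeq. The motif stood in the windows of 6 of the 39 members that have one (15.4%) and in 304 of 27025 genes (1.12%). These members were *Ctsd*, *Ctsa*, *Gla*, *Mcoln1*, *Atp6v0d1* and *Atp6v1a*. The shorter CACGTG, which lies inside TCACGTGA, stood in 15 of the 39 (38.5%) and in 2187 of the 27025 (8.09%). *Ctsb*, *Ctsh*, *Galns*, *Asah1* and *Atp6v0d2* had no window. Windows of 4 members are shown because they cover a protease, a peptidase that also protects other enzymes, an ion channel and a pump subunit. Capitals mark the motif, and positions are on GRCm38.p6 at chr7:142387908-142387937 on the minus strand for *Ctsd*, chr2:164833749-164833778 on the plus strand for *Ctsa*, chr8:3500462-3500491 on the plus strand for *Mcoln1* and chr8:105566050-105566079 on the minus strand for *Atp6v0d1*.
Ctsd: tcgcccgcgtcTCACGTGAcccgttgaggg
Ctsa: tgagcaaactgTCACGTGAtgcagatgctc
Mcoln1: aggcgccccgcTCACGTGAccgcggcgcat
Atp6v0d1: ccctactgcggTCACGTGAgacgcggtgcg

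The tumors held 9143806 to 13258258 reads assigned to genes. Levels are normalized counts, that is, reads divided by each library's size factor, and fold changes are differences of log2(normalized count + 1) between FF-10101–treated and control tumors. Genes were tested with limma, and p-values were adjusted over all genes by the Benjamini-Hochberg method. Over all 13963 genes, 6 had an adjusted p under 0.05 (0.0430%) and 2270 an unadjusted p under 0.05 (16.3%). Control tumor 1 stood apart for many genes: leaving it out raised the number of genes past the adjusted threshold to 3051, and leaving out any other tumor gave 1 to 5.

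No member passed the adjusted threshold, and the lowest adjusted p among the 44 was 0.229 (limma). *Ctsk*, which encodes the collagen-degrading cathepsin K, and *Atp6v0d2*, a V-ATPase subunit gene, had an unadjusted p under 0.05, and in both genes the lowest FF-10101–treated tumor exceeded the highest control tumor. That is 4.55% of the members, beside 8.77% of all genes with such a p and a higher level, and 10.9% of all genes with groups that did not overlap in that direction. No member had a p under 0.05 and a lower level, beside 7.49% of all genes, or lay lower in every treated tumor, beside 9.37%. The log2 fold change was above 0 for 23 of the 44 members (52.3%) and for 51.9% of all genes, and its median was 0.032 for the members and 0.020 for all genes. For 32 of the 44, the 95% interval of the fold change lay within 2-fold in either direction, and for 12 it reached further.

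**Figure D1:**
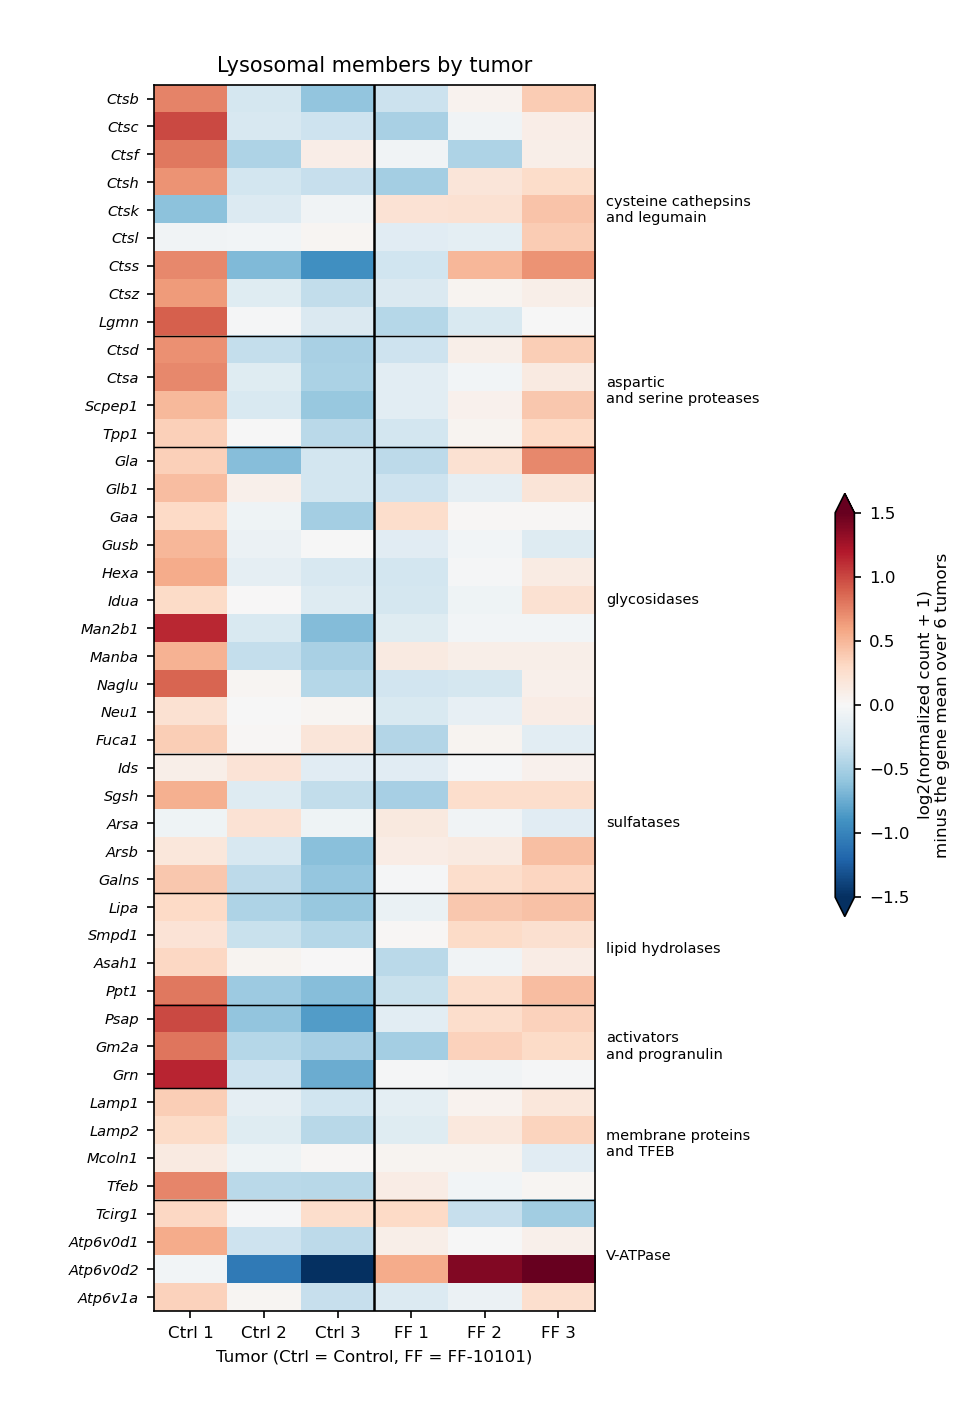
Heat map of the 44 lysosomal members (rows, grouped by role) in the 6 tumors (columns); the colour is log2(normalized count + 1) minus the gene's mean over the 6 tumors, and arrows on the scale mark values beyond it. Control tumor 1 is red in most rows and is the highest tumor for 34 members, while *Ctsk* and *Atp6v0d2* separate the treated from the control tumors.

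Among the cysteine cathepsins, *Ctsk* had 499.8, 665 and 741 normalized counts in control tumors 1 to 3 and 892, 896 and 1027 in FF-10101 tumors 1 to 3. The lowest treated tumor thus lay above the highest control tumor, and control tumor 1, the highest tumor for most members, was the lowest here. The means were 635 ± 123 (SD, n = 3) and 938 ± 76.7 (SD, n = 3), and the log2 fold change was 0.58 (SE 0.18, 95% interval 0.16 to 1.00, adjusted p = 0.235, limma). An exact permutation test of the 3 against 3 tumors gave a two-sided p of 0.1, the smallest it can give. Leaving out single tumors gave log2 fold changes from 0.41 to 0.70, the lowest (adjusted p = 0.0673, limma) without control tumor 1. *Ctsk* is a known product of osteoclasts and of activated fibroblasts. The summed level of 6 osteoclast markers was 408 to 925 normalized counts in the control and 757 to 1240 in the treated tumors. *Acp5* and *Itgb3* made up most of it, with means of 282 and 285 in the control and 502 and 472 in the treated tumors. *Calcr* had 0 reads in every tumor, and *Dcstamp* and *Oscar* did not reach the count minimum. The summed level of 10 fibroblast or fibrosarcoma markers was 94922 to 272740 and 218229 to 327779. All 10 of these markers and the 3 osteoclast markers tested had a log2 fold change above 0. In 3 of the 10 and 0 of the 3, every treated tumor lay above every control tumor, beside 10.9% of all genes. Among the control tumors both sums were highest in control tumor 1, where *Ctsk* was lowest. The part of these cells in the level of *Ctsk* was not tested.

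*Ctss* encodes cathepsin S, which trims the invariant chain of MHC class II in antigen-presenting cells and was the member with the highest level per length, at 13291 normalized counts per kb of transcript. It had 26856, 10266 and 8592 normalized counts in the control tumors and 13229, 22995 and 26118 in the FF-10101–treated tumors. Every treated tumor lay above control tumors 2 and 3, and none reached control tumor 1. The log2 fold change was 0.58 (SE 0.45, adjusted p = 0.543, limma), and 1.09 (adjusted p = 0.0289, limma) without control tumor 1.

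*Ctsb*, for the abundant endopeptidase cathepsin B, had 30340, 15087 and 12075 normalized counts in the control tumors and 14573, 18885 and 23631 in the FF-10101–treated tumors. The groups overlapped and their means were 19167 ± 9792 and 19030 ± 4531 (SD, n = 3 each), for a log2 difference of 0.078 (95% interval −0.75 to 0.91). *Ctsl*, for cathepsin L, was the steadiest of the abundant cathepsins among the control tumors, with 7378, 7398 and 7796 normalized counts. The treated tumors had 6802, 6884 and 9939, below the control tumors in FF-10101 tumors 1 and 2 and above them in FF-10101 tumor 3. Its log2 fold change was 0.043 (95% interval −0.40 to 0.49). *Ctsl* was also 1 of 4 members for which control tumor 1 was not the highest control tumor; the others were *Ctsk*, *Ids* and *Arsa*.

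The other 5 genes of this role were the exopeptidase genes *Ctsc*, *Ctsh* and *Ctsz*, the little studied *Ctsf*, and *Lgmn*, whose product legumain cuts after asparagine and matures other cathepsins. Their log2 fold changes lay between −0.44 (*Lgmn*, adjusted p = 0.484, limma) and −0.036 (*Ctsh*), and in none did the groups separate. *Ctsf* had the lowest level per length of all members, at 25.6 normalized counts per kb. Without control tumor 1, *Lgmn* alone among the 9 genes stayed below 0, at −0.10.

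Of the aspartic and serine proteases, *Ctsd* encodes cathepsin D, the main aspartic protease of lysosomes. It had 15146, 7354 and 6718 normalized counts in the control tumors and 7591, 9963 and 12104 in the FF-10101–treated tumors. All treated tumors lay between control tumor 1 and control tumors 2 and 3. The log2 fold change was 0.10 (95% interval −0.67 to 0.86), and 0.47 (adjusted p = 0.131, limma) without control tumor 1. *Ctsa*, *Scpep1* and *Tpp1*, for 2 serine carboxypeptidases and a tripeptidyl peptidase, had log2 fold changes of −0.04, 0.21 and 0.043. For *Ctsd* and *Ctsa*, whose promoters are printed above, the fold change without control tumor 1 was on the same side as for the 2 others, 0.47 and 0.31.

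The 11 glycosidases, which take sugars off glycolipids, glycoproteins and glycosaminoglycans, had log2 fold changes from −0.37 to 0.38 with a median of −0.16, and 3 of the 11 were above 0 (*Gla*, *Gaa* and *Manba*). Without control tumor 1, the median was 0.051 and 8 of the 11 were above 0, so the direction of this role turned. The highest was *Gla*, for α-galactosidase A, with 369 ± 133 and 484 ± 181 normalized counts (SD, n = 3 each), and the lowest *Fuca1*, for α-fucosidase, with 953 ± 117 and 739 ± 119 (adjusted p = 0.338, limma). *Hexa*, the α subunit of β-hexosaminidase, was the glycosidase with the most reads and had a log2 fold change of −0.11. *Manba*, for β-mannosidase, had a log2 fold change of 0.21 over all tumors and 0.53 (adjusted p = 0.0327, limma) without control tumor 1. *Glb1*, *Gusb*, *Idua*, *Man2b1*, *Naglu* and *Neu1* were all below 0 over the 6 tumors, between −0.32 and −0.072.

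The 5 sulfatases, which remove sulfate from glycosaminoglycans and sulfatide, had log2 fold changes from −0.08 to 0.46. *Arsb*, for arylsulfatase B, and *Galns*, for the sulfatase of keratan sulfate, had the highest values at 0.46 and 0.37, and 0.66 and 0.67 (adjusted p = 0.0312 and 0.0314, limma) without control tumor 1. *Ids*, *Sgsh* and *Arsa* lay within 0.1 of 0, from −0.08 to 0.021.

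Of the 4 lipid hydrolases, *Lipa*, for the acid lipase that frees cholesterol from its esters, had 1158 ± 406 and 1589 ± 309 normalized counts (SD, n = 3 each). Its log2 fold change was 0.49 (adjusted p = 0.381, limma), and 0.76 (adjusted p = 0.0236) without control tumor 1. *Smpd1*, for acid sphingomyelinase, followed with 0.37, and 0.56 (adjusted p = 0.034, limma) without that tumor. *Ppt1*, for palmitoyl-protein thioesterase, had a log2 fold change of 0.26, and 0.72 (adjusted p = 0.0555, limma) without control tumor 1. *Asah1*, for acid ceramidase, had −0.23 and −0.14. Every treated tumor was higher in *Lipa*, *Smpd1* and *Ppt1* than control tumors 2 and 3, and none of the 4 genes had groups that separated once control tumor 1 was counted.

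*Psap* encodes prosaposin, the precursor of 4 saposins that present lipids to their hydrolases, and took more reads than any other member. It had 56090, 18714 and 15813 normalized counts in the control tumors and 25273, 33988 and 35993 in the FF-10101–treated tumors. Control tumor 1 was the highest tumor and the other control tumors the lowest of the 6. The log2 fold change was 0.30 (SE 0.46, adjusted p = 0.765, limma), and 0.87 (adjusted p = 0.0188, limma) without control tumor 1.

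*Grn*, for progranulin, a secreted and lysosomal protein, had 15291, 5593 and 4154 normalized counts in the control tumors and 6854, 6695 and 6843 in the FF-10101–treated tumors. The treated tumors differed from each other by little, with an SD of 89.0 beside 6057 in the control tumors. The log2 fold change was −0.059 (95% interval −1.05 to 0.93), and 0.50 (adjusted p = 0.0552, limma) without control tumor 1. For *Gm2a*, which encodes the activator of ganglioside breakdown, the log2 fold change was 0.083, and the 3 activator genes together covered −0.059 to 0.30.

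*Lamp1*, a main glycoprotein of the lysosomal membrane, had 11361, 7999 and 7145 normalized counts in the control tumors and 7944, 9093 and 9852 in the FF-10101–treated tumors. The means were 8835 ± 2229 and 8963 ± 961 (SD, n = 3 each), and the log2 difference was 0.044 (95% interval −0.45 to 0.54). *Lamp2*, its close relative, had 4867, 3504 and 2985 against 3496, 4443 and 4997, a log2 fold change of 0.20 (95% interval −0.32 to 0.72). In both genes control tumor 1 lay above the other control tumors and the groups overlapped.

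*Tfeb*, for the factor that binds the CLEAR element, had 331, 150 and 149 normalized counts in the control tumors and 215, 194 and 204 in the FF-10101–treated tumors. The treated tumors lay above control tumors 2 and 3 and below control tumor 1, with a log2 fold change of 0.067 (95% interval −0.66 to 0.80), and 0.45 (adjusted p = 0.0946, limma) without control tumor 1. *Mcoln1*, for the lysosomal calcium channel TRPML1, was even across the tumors, with 333, 290.1 and 307 in the control and 312, 312 and 270.2 in the treated tumors. Its log2 fold change was −0.058 (95% interval −0.43 to 0.31), and −0.0058 without control tumor 1. The level of *Tfeb* transcript does not measure how much of the protein is in the nucleus, where it acts. The median log2 fold change was 0.036 over the 6 members with TCACGTGA in the promoter window, −0.025 over the 15 with CACGTG and 0.055 over the 24 with a window and no CACGTG. In the same order, the medians were 0.36, 0.14 and 0.41 without control tumor 1, which turned the sign of the CACGTG set.

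The V-ATPase pumps protons into the lysosome through a membrane sector, which includes the d subunit, driven by a sector that splits ATP. The d subunit is made from *Atp6v0d1* in most cells or from *Atp6v0d2* in macrophages, osteoclasts and a few other cells. *Atp6v0d2* had 58.5, 28.3 and 6.66 normalized counts in the control tumors, from 52, 26 and 6 reads, and 89.4, 159 and 272 in the FF-10101–treated tumors, from 117, 146 and 306 reads. Every treated tumor was above every control tumor, though both groups spread widely, with means of 31.1 ± 26.1 and 173 ± 92.2 (SD, n = 3 each). The log2 fold change was 2.73 (SE 0.74, 95% interval 1.03 to 4.44, adjusted p = 0.229, limma), the largest of the 44 members, and the exact permutation test gave a two-sided p of 0.1, the smallest possible. Leaving out single tumors gave 1.92 to 3.40, the highest (adjusted p = 0.00933, limma) without control tumor 1.

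*Atp6v0d1* had 1426, 778 and 734 normalized counts in the control tumors and 1029, 964 and 1017 in the FF-10101–treated tumors. The treated tumors lay between control tumor 1 and the 2 other control tumors, with a log2 fold change of 0.10 (95% interval −0.48 to 0.69). Per kb of transcript, *Atp6v0d2* made up 2.57, 2.28 and 0.578% of the counts of both d subunit genes in the control tumors and 5.28, 9.54 and 14.6% in the treated tumors. The d2 form was thus the minor one in every tumor, and its share was higher in each of the treated tumors. *Atp6v1a*, the ATP-splitting A subunit, and *Tcirg1*, the a3 subunit of osteoclasts and phagocytes, had log2 fold changes of −0.025 and −0.38 (adjusted p = 0.435 for *Tcirg1*, limma).

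**Figure D2:**
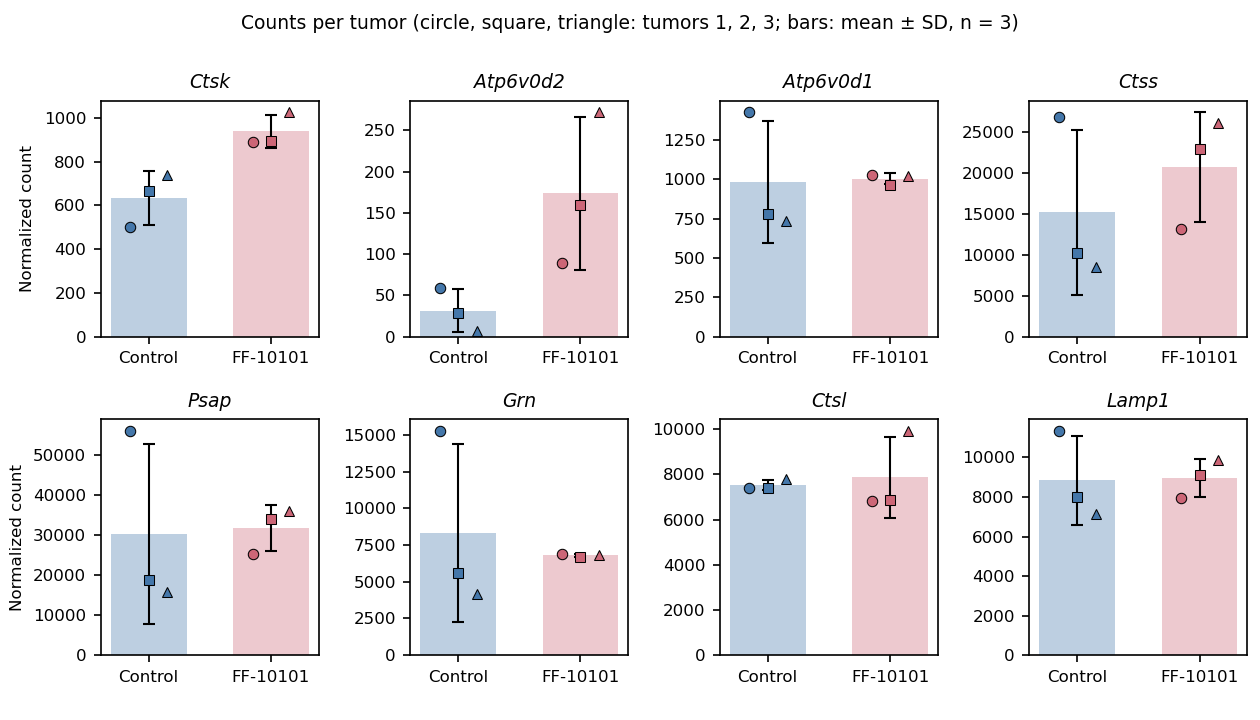
Normalized counts of 8 members in each tumor (y axes, starting at 0 and scaled per gene), with bars at the group mean and error bars of 1 SD (n = 3); circles, squares and triangles are tumors 1, 2 and 3. *Ctsk* and *Atp6v0d2* have treated tumors above all control tumors, and in *Ctss*, *Psap*, *Grn*, *Atp6v0d1* and *Lamp1* the circle of control tumor 1 lies above every other tumor.

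The 44 members took 2.39, 1.28 and 1.10% of all normalized counts in the control tumors and 1.33, 1.70 and 1.88% in the FF-10101–treated tumors. The group means were 1.59 ± 0.695% and 1.64 ± 0.284% (SD, n = 3 each), so the difference between the groups was far smaller than the spread among the control tumors. The 5 members with the most reads, *Psap*, *Ctsb*, *Ctss*, *Ctsd* and *Ctsc*, made up 0.809 ± 0.465% and 0.881 ± 0.199%. Cysteine cathepsins with legumain were the largest role at 0.482 to 1.01% in the control and 0.533 to 0.848% in the treated tumors, and activators with progranulin, led by *Psap*, came next at 0.214 to 0.698% and 0.335 to 0.449%. V-ATPase subunits took 0.0338 to 0.0454% and 0.0348 to 0.0391%, and sulfatases 0.0246 to 0.0325% and 0.0317 to 0.0358%. In levels per kb, *Ctss* (13291) and *Psap* (11659) stood well above *Ctsd* (4613), *Lgmn* (4110), *Ctsb* (4027) and *Lamp1* (3992), which lay close together.

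**Figure D3:**
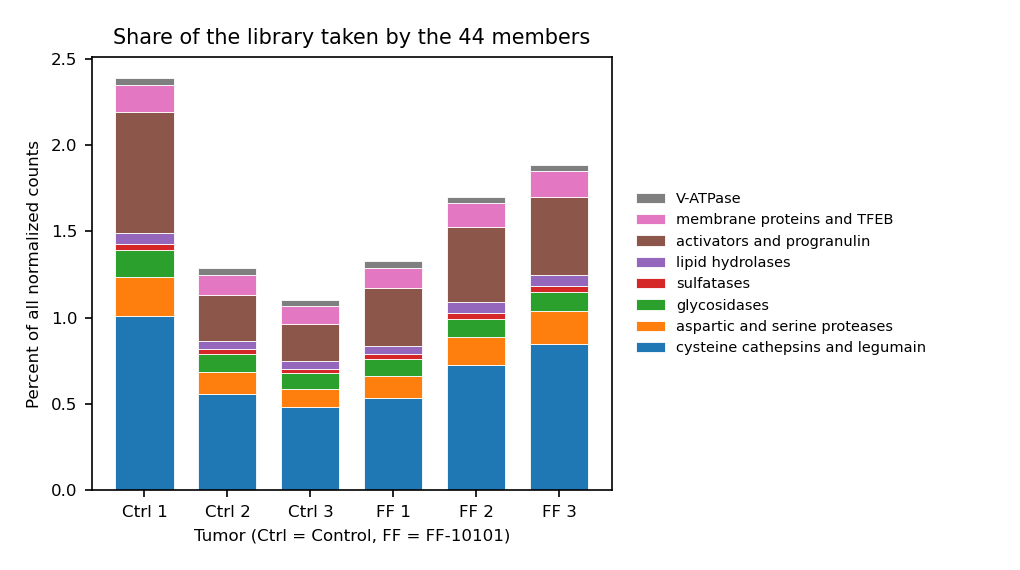
Percent of all normalized counts in each tumor (y axis) taken by the 44 members, stacked by role. The total is 2.39% in control tumor 1, 1.28 and 1.10% in the other control tumors and 1.33 to 1.88% in the treated tumors, with cysteine cathepsins and activators making up most of every bar.

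The lysosomal members varied more among the control tumors than between the groups. Control tumor 1 was the highest of the 3 control tumors for 40 of the 44 members (90.9%), against 44.6% of all genes tested, and the highest of all 6 tumors for 34 members, against 20.4% of all genes. Its level was a median 1.76 times the mean of control tumors 2 and 3, from 0.711 times for *Ctsk* to 3.35 times for *Atp6v0d2*, and 14 members were at 2 times or more. *Psap* and *Grn* followed *Atp6v0d2* at 3.25 and 3.14 times. Control tumor 3 was the lowest of the 6 tumors for 24 members and FF-10101 tumor 1 for 13. The depth of control tumor 1, 9643535 reads, was within the range of the others, and the summed markers of 8 of 11 cell type lists were also highest among the control tumors there. These 8 were the macrophage, fibroblast or fibrosarcoma, endothelial, T or NK cell, dendritic cell, osteoclast, muscle and adipocyte lists. The part of these cells in the members' levels was not tested.

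With control tumor 1 left out, 35 of the 44 members (79.5%) had a log2 fold change above 0, against 52.6% of all genes, and the members' median was 0.30, against 0.036. The 8 members that then passed the adjusted threshold were *Ctss*, *Manba*, *Arsb*, *Galns*, *Lipa*, *Smpd1*, *Psap* and *Atp6v0d2*, all higher in the FF-10101–treated tumors. They are 18.2% of the members, against 12.0% of all genes called higher and 9.88% called lower without this tumor. Every treated tumor lay above control tumors 2 and 3 in 18 of the 44 members (40.9%; 28.4% of all genes) and below both in none (25.7% of all genes). Control tumor 1 was the highest control tumor for 40 of the 44 members (90.9%) and for 44.6% of all genes. Leaving it out raises the fold change of every such gene, so these shares follow in part from the tumor removed. The labels give no reason to remove it. The members' median depended on the tumor left out: it was −0.046 and −0.15 without control tumors 2 and 3, and 0.10, −0.0083 and −0.078 without FF-10101 tumors 1 to 3. No member passed the adjusted threshold in any of these 5 fits.

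**Figure D4:**
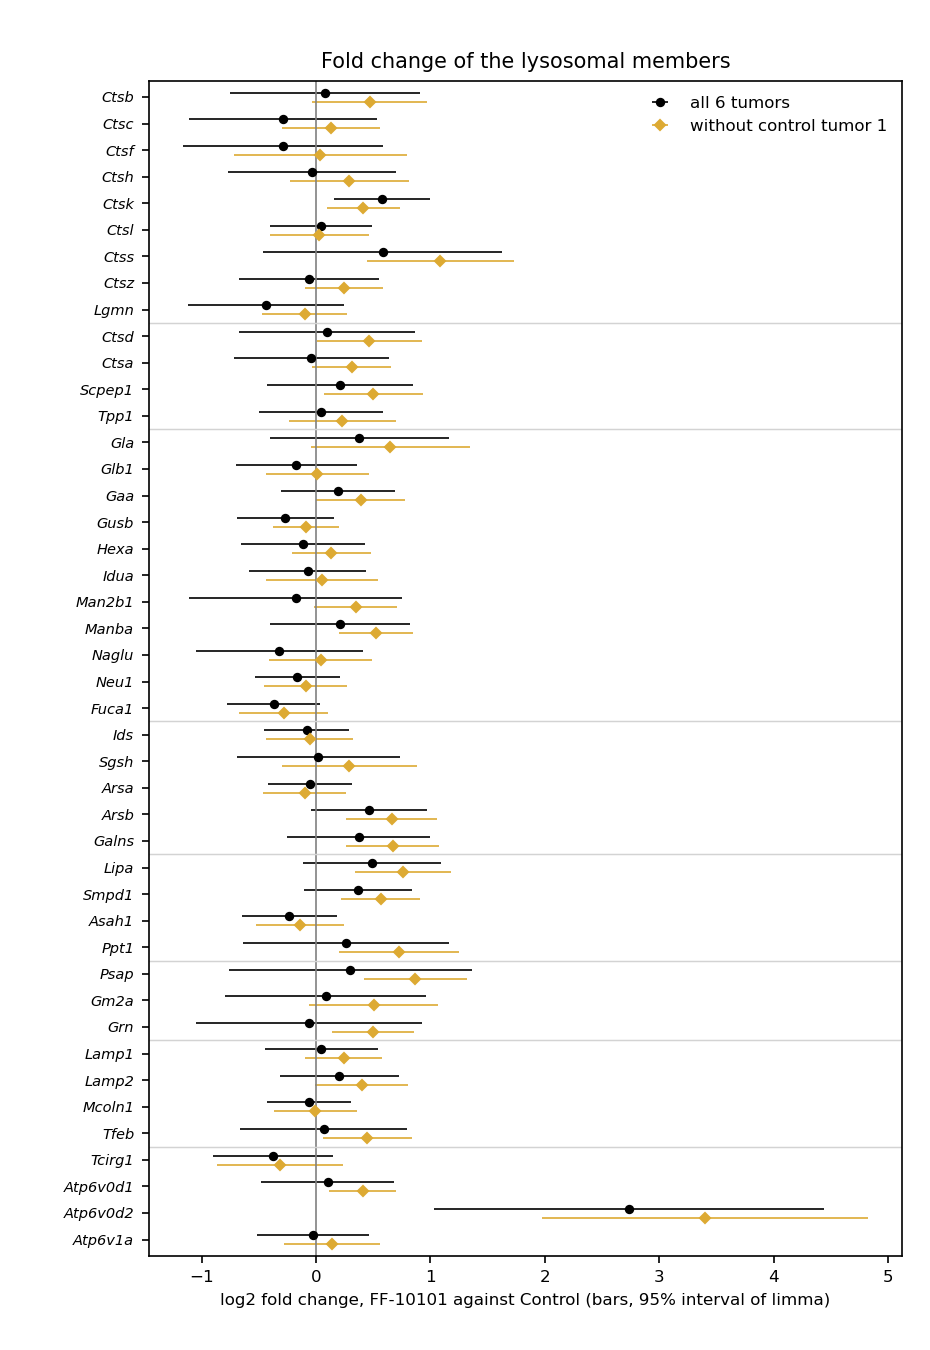
Log2 fold change of each member, FF-10101 against Control (x axis), with its 95% interval from limma, over all 6 tumors (black circles) and without control tumor 1 (yellow diamonds); grey lines divide the roles. Over all tumors only the intervals of *Ctsk* and *Atp6v0d2* exclude 0, and without control tumor 1 most members move to the right.

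Macrophages are rich in lysosomal transcripts, and fewer macrophages cannot be told apart from less RNA per macrophage in bulk samples. Of 13 macrophage markers, 7 had an unadjusted p under 0.05 and a lower level, beside 7.49% of all genes. These were *Adgre1*, *Lyz2*, *Itgam*, *C1qa*, *C1qb*, *C1qc* and *Mrc1*. In the same 7, all 3 FF-10101–treated tumors lay under the lowest control tumor, beside 9.37% of all genes. No marker passed the adjusted threshold. Without control tumor 1, *Adgre1*, *C1qc* and *Mrc1* passed it as lower, with log2 fold changes of −0.85, −0.55 and −1.35 (adjusted p = 0.0309, 0.0422 and 0.018, limma). In the same fit 5 of the 13 lay above 0 and none passed as higher. These were *Csf1r*, *Cd68*, *Fcgr1*, *Mertk* and *Cd14*, at 0.14, 0.28, 0.30, 0.33 and 0.52, and the first 3 were below 0 over all 6 tumors. The summed level of the 13 was 74211 to 111923 normalized counts in the control and 38025 to 59724 in the treated tumors, and no marker was at 0. Each gene was then centred on its mean log2 value over the 6 tumors. The median over the 12 markers other than the lysosomal *Cd68* was 0.75, 0.082 and 0.091 in the control tumors and −0.67, −0.20 and −0.088 in the treated tumors. The median over the 44 members was 0.47, −0.20 and −0.39 in the control tumors and −0.18, 0.037 and 0.18 in the treated tumors. The members' median lay below that of the markers in each control tumor, by −0.28, −0.28 and −0.48, and above it in each treated tumor, by 0.49, 0.23 and 0.27. The markers' median separated the groups and the members' median did not, and the difference is given with no test. *Csf1r*, *Cd68*, *Fcgr1*, *Mertk*, *Cd14* and *Cd163* overlapped between the groups, with log2 fold changes from −0.95 to 0.35.

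**Figure D5:**
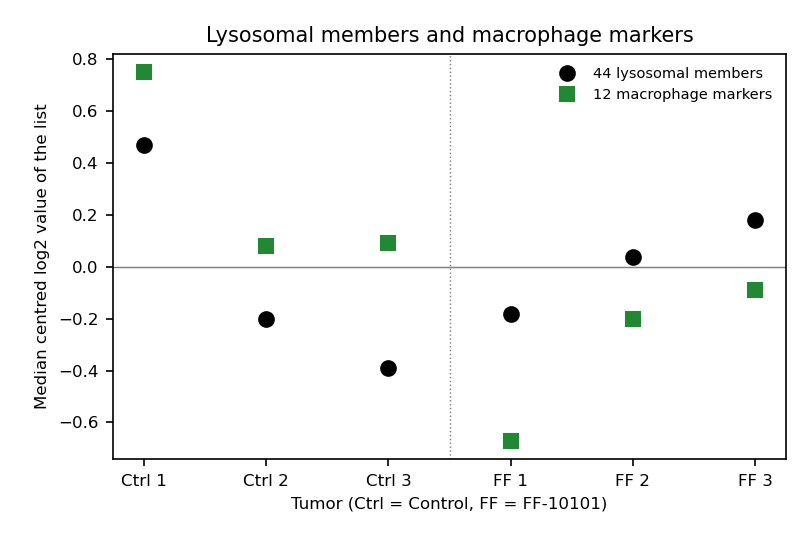
Median over the list of each gene's log2(normalized count + 1) minus its mean over the 6 tumors (y axis), for the 44 lysosomal members (black circles) and 12 macrophage markers (green squares) in each tumor. The circles lie below the squares in the 3 control tumors and above them in the 3 treated tumors, and both are highest in control tumor 1. Because each gene is centred over the same 6 tumors, the positions in the control and treated tumors are not separate results.

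Markers of other cells were summed in the same way. Summed levels in the control and treated tumors were 1927 to 2280 and 2778 to 3226 normalized counts for 7 neutrophil markers, and 1096 to 3898 and 3834 to 4536 for 4 endothelial markers. They were 633 to 1983 and 926 to 2091 for 7 T or NK cell markers, and 4637 to 5268 and 3676 to 5532 for 7 dendritic cell markers, a sum that *Fscn1*, which other cells also express, made up mostly, with means of 4504 and 3974. They were 39.1 to 71.1 over both groups for 4 B cell markers, 2066 to 6990 for 4 muscle markers and 234 to 1113 for 4 adipocyte markers. Keratinocyte markers reached 924 in FF-10101 tumor 1 and at most 179.7 in the other tumors. Neutrophil markers thus separated the groups in their sum. *Mmp9* was its largest part, with means of 1235 and 1149 in the control and treated tumors, and overlapped between the groups. Of the 7, only *S100a8*, *S100a9* and *Cxcr2* had every treated tumor above every control tumor. The part of these other cells in the members' levels was not tested.

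Another 119 genes of the lysosome were listed by role and 114 passed the count minimum. None passed the adjusted threshold with all 6 tumors, while 5 were higher and 10 lower with an unadjusted p under 0.05, beside the 8.77 and 7.49% of all genes. The median log2 fold change of the 114 was 0.052. The same shares of all genes stand beside the counts of each list below. Without control tumor 1, 18 of the 114 passed the adjusted threshold as higher and 10 as lower, beside 12.0 and 9.88% of all genes.

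Of 32 other hydrolases and cofactors, 1 was higher and 3 lower at an unadjusted p under 0.05. Among the lower were the ribonuclease gene *Rnaset2a*, with a log2 fold change of −0.79, and *Hgsnat*, for the acetyltransferase of heparan sulfate breakdown, with −0.41 (adjusted p = 0.234 and 0.26, limma). *Rnaset2a* had 1120, 649.8 and 681 normalized counts in the control tumors and 371, 513 and 503 in the FF-10101–treated tumors, and the groups did not overlap. *Rnaset2b*, on the same list, went the other way, with 1556, 830.2 and 914 against 1026, 1379 and 1435 and groups that overlapped. Its log2 fold change was 0.26, and 0.54 without control tumor 1. How reads were divided between *Rnaset2a* and *Rnaset2b* was not tested. The gene higher at this level was *Acp5*, for tartrate-resistant acid phosphatase, with a log2 fold change of 0.85 and groups that overlapped, since control tumor 1 had 416 normalized counts and FF-10101 tumor 1 had 322. Its value was 1.17 (adjusted p = 0.0225, limma) without control tumor 1. *Rnaset2a* and *Hgsnat* stayed short of the adjusted threshold without that tumor, at −0.54 and −0.36.

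Of 27 other membrane proteins tested, 1 was higher and 1 lower at this level. *Gpnmb*, for a glycoprotein of phagocytes and melanosomes that MiT factors are known to control, had 239, 66.3 and 36.6 normalized counts in the control tumors and 243, 429 and 386 in the FF-10101–treated tumors. Control tumor 1 lay just under the lowest treated tumor, and the log2 fold change was 2.02 (adjusted p = 0.229, limma), and 2.77 (adjusted p = 0.0019, limma) without control tumor 1. *Tpcn1*, for a cation channel of endosomes and lysosomes, was lower in every treated tumor, at −0.65 on the log2 scale (adjusted p = 0.229, limma) and −0.75 (adjusted p = 0.0249) without control tumor 1, and *Tmem175*, for a potassium and proton channel, had 0.28. *Lamp3*, the dendritic cell LAMP gene, had 0 reads in every tumor, which allows at most 2.29 to 3.38 normalized counts.

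Of 16 other V-ATPase subunits tested, 3 were lower and 0 higher at this level: *Atp6v1f*, *Atp6v0e* and *Atp6v0b*, with log2 fold changes of −0.63, −0.49 and −0.46 (adjusted p = 0.229, 0.235 and 0.253, limma). All 3 and 2 more subunits, *Atp6v0a1* and *Atp6v1g1*, were below the lowest control tumor in all 3 treated tumors, in the other direction from *Atp6v0d2*. Of all genes, 9.37% lay lower in this way. *Atp6v1f*, of the ATP-splitting sector, had 1308, 1162 and 1433 normalized counts in the control tumors and 939, 757 and 827 in the treated tumors, and control tumor 1 lay between the other control tumors. Without that tumor, *Atp6v1f* and *Atp6v0e* passed the adjusted threshold at −0.62 and −0.52 (adjusted p = 0.0277 and 0.0464, limma), and *Atp6v0b* did not.

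Of 13 genes that sort enzymes to the lysosome, 1 was lower, *Vps29* of the retromer, with a log2 fold change of −0.49. *Nagpa*, for the uncovering enzyme of the mannose 6-phosphate tag, had −0.44 and the sorting receptor gene *Sort1* had 0.42. Of 17 MiT factor and mTORC1 genes tested, 1 was lower, the mTORC1 activator gene *Rheb*, with −0.44. *Lamtor1* and *Rptor*, for a Ragulator subunit and for Raptor, had −0.37 and −0.30. None of the 6 passed the adjusted threshold over all tumors, and *Vps29* and *Rheb* passed it without control tumor 1, at −0.70 and −0.52 (adjusted p = 0.0163 and 0.0392, limma).

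Of 9 genes for cathepsin and related protease inhibitors, 3 were higher and 1 lower at an unadjusted p under 0.05. *Ctla2b* and *Ctla2a*, which encode relatives of the cathepsin propeptide, had opposite log2 fold changes of −1.13 and 0.94, and *Serpinb1a* had 0.65 (adjusted p = 0.229, 0.257 and 0.252, limma). *Ctla2b* had 251, 303 and 479 normalized counts in the control tumors and 105, 165 and 197 in the FF-10101–treated tumors. *Ctla2a* had 1143, 648 and 586 against 930.2, 1791 and 1858, where control tumor 1 lay above FF-10101 tumor 1. *Ctla2b*, *Ctla2a* and *Serpinb1a* passed the adjusted threshold without control tumor 1, at −1.33, 1.24 and 0.78 (adjusted p = 0.0199, 0.0203 and 0.0357, limma). *Ctla2a* and *Ctla2b* are paralogs, so reads assigned between them are uncertain.

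Exons of 15 members overlap an exon of another gene, for 13 of them on the opposite strand, and the strand of the library is not stated, so part of their reads may belong to the partner. Among the members with per-tumor values these are *Ctsb*, *Ctsd*, *Ctsl*, *Grn* and *Lamp1*, while *Ctsk* and *Atp6v0d2* have no such overlap.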

How the data were processed

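Bulk RNA of 3 Control and 3 FF-10101 tumors was analysed, grouped by the treatment in the labels. The authors trimmed reads with fastp 0.19.5, quantified them with Salmon 1.5.1 on GENCODE vM27 (GRCm39) and used DESeq2 1.22.1, versions per the submitters' processing notes. The deposited values are on a log2 scale, 1 for each gene in each tumor, by a transformation that is not stated. Inverting a variance-stabilizing form gave whole reads for 100% of values, to within 1e-06, from 9143806 to 13258258 a tumor. Salmon's estimates leave reads of overlapping or near-identical genes uncertain.

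The 13963 genes averaging 10 or more normalized counts were tested with limma 3.58.1 (R 4.3.3, trend) on log2(normalized count + 1). The fit was also run on simulated counts in which no tumor stood apart, so that run does not bear on the effect of control tumor 1. An exact permutation test was run for single members. Levels per kb use the principal transcript of GENCODE vM21. Promoter windows come from RefSeq on GRCm38.p6. The members and all lists were chosen with earlier results of these data known. Values in every tumor are given for members with an unadjusted p under 0.05 or groups that do not overlap, and for 13 members singled out when the lists were made. From each other list, the 3 genes with the smallest p are named, except 1 gene that is not reported here. *Acp5*, *Rnaset2b*, *Atp6v0a1*, *Atp6v1g1*, the members called without control tumor 1 and the extremes of each role were named after their values were seen. Alternatives were other pseudocounts, minimum counts, scalings, weights and tools, a replicate block, and each tumor left out.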

Additional observations from a re-analysis of the deposited data

How the results depend on the processing

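The result that no member passed the adjusted threshold held under every alternative fit except 2. Without control tumor 1 the number was 8 (0 to 8 with each tumor left out), and with array weights it was 22. Those weights were 0.139, 5.39 and 0.475 for the control and 0.406, 8.08 and 0.859 for the FF-10101–treated tumors, so that this fit rests mostly on tumor 2 of each group. Members with an unadjusted p under 0.05 numbered 2 with all tumors, 25 with array weights and 1 to 15 with a tumor left out. Genes past the adjusted threshold numbered 8365 with array weights, 17 with no minimum count, 3 with a mean of at least 50 and 1 to 3051 with a tumor left out. With the replicate block 1 gene and 0 members passed, and 2 members and 7 other lysosome genes (15 without it) had an unadjusted p under 0.05. In deviations from the group means, tumors of the same number correlated at −0.288, −0.0397 and −0.277. Deviations within a group of 3 depend on each other, so these values cannot tell whether such tumors share more than a number. Of the other lysosome genes, 0 to 28 passed the adjusted threshold and 6 to 42 had an unadjusted p under 0.05 with a tumor left out. The members' median log2 fold change stayed within the SD over tumors of 0.34, from −0.15 to 0.30, and the difference in their share of reads within 0.53 percentage points, from −0.20 to 0.44.

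Of the 748 alternative fits of single members, 61 turned the sign, none of *Ctsk* or *Atp6v0d2*. With array weights the log2 fold changes that turned were 0.15 for *Ctsc*, 0.41 for *Ctsh*, −0.062 for *Ctsl*, 0.21 for *Ctsz*, 0.15 for *Ctsa*, 0.0016 for *Gusb*, 0.12 for *Hexa*, 0.18 for *Man2b1*, 0.26 for *Grn* and 0.073 for *Mcoln1*. With quantile normalization they were 0.015 for *Grn* and 0.0075 for *Atp6v1a*. With each tumor left out in turn, 27 members turned sign in at least 1 fit, over these ranges of log2 fold change. For the cysteine cathepsins these were *Ctsb* −0.20 to 0.47, *Ctsc* −0.52 to 0.13, *Ctsf* −0.59 to 0.036, *Ctsh* −0.22 to 0.29, *Ctsl* −0.14 to 0.14 and *Ctsz* −0.26 to 0.24. For the other proteases these were *Ctsd* −0.12 to 0.47, *Ctsa* −0.29 to 0.31, *Scpep1* −0.024 to 0.50 and *Tpp1* −0.15 to 0.23. For the glycosidases these were *Glb1* −0.36 to 0.011, *Gaa* −0.016 to 0.39, *Hexa* −0.26 to 0.13, *Idua* −0.20 to 0.051, *Man2b1* −0.54 to 0.35 and *Naglu* −0.61 to 0.039. For the sulfatases these were *Ids* −0.18 to 0.003, *Sgsh* −0.16 to 0.29 and *Arsa* −0.14 to 0.041. For the activators with progranulin these were *Psap* −0.046 to 0.87, *Gm2a* −0.15 to 0.50 and *Grn* −0.44 to 0.50. For the membrane proteins and TFEB these were *Lamp1* −0.095 to 0.24, *Mcoln1* −0.11 to 0.01 and *Tfeb* −0.13 to 0.45. For the V-ATPase subunits these were *Atp6v0d1* −0.071 to 0.41 and *Atp6v1a* −0.20 to 0.14. The cause of the differences between fits was not tested. With 3 tumors a group, the permutation test cannot go below 0.1, and the median standard error of a member's log2 fold change was 0.26.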
